A study of Arabidopsis thaliana with 12 samples.

Results

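Cold and ambient arrays of 3 Arabidopsis thaliana lines with altered membrane lipids were compared: fab1, fad2 and the triple mutant fad3/7/8. The members are the 6 arrays whose labels name one of these lines, of 12 in the series, and each line gave 1 cold and 1 ambient array. The fab1 and fad2 lines arose by EMS mutagenesis. The triple mutant was bred by crossing mutants of the same origin, and its titles name it as carrying aeq, the tag that the series also uses for an apoaequorin line. The other 3 lines were Col-0, Col-aeq and 35S-FAD3, and the last is named for 35S::apoaequorin alone in its genotype label; 35S is a promoter active in most plant tissues. RNA came from whole seedlings at growth stage 1.02, grown on MS medium in a 16 h light, 8 h dark cycle at 20 °C following 4 days of refrigeration, and was hybridised to Affymetrix ATH1 arrays. How cold the treatment was, and how long it lasted, is not given in the sources used here. Since each array bears the label of replicate 1, p-values reflect the spread of the cold change over the 3 lines, not the spread between separate growths of a line.

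Plants that meet low temperature switch on a short-lived wave of transcription factors, the CBF family among them, which then raise the COR genes. COR proteins are mostly small and hydrophilic, and several shield membranes and chloroplasts when cells freeze. Cold also stiffens membranes, and fatty acid desaturases, which add double bonds to acyl chains, keep them fluid. FAB1 is needed to lengthen palmitate, FAD2 desaturates oleate in the endoplasmic reticulum, and FAD3, FAD7 and FAD8 make trienoic fatty acids in the endoplasmic reticulum and the plastid. The title of the series poses the question of how membrane fluidity bears on the perception of low temperature.

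The 6 mutant arrays were alike in their controls, with actin 3'/5' ratios of 1.99 to 2.21, GAPDH ratios of 0.944 to 1.08 and 25S rRNA signals of 99.1 to 229. The Col-aeq ambient array stood apart, with an actin ratio of 7.00, a GAPDH ratio of 1.87 and a 25S rRNA signal of 2463, so each count of calls that uses the other lines is given with and without Col-aeq. The 25S rRNA signal was also above the mutant range on the Col-aeq cold array (849) and on the 35S-FAD3 arrays (312 at ambient temperature, 473 in the cold). The 35S-FAD3 line stays in the fits without Col-aeq. Probe sets for FAB1, FAD2, FAD3, FAD7, FAD8 and CBF1 to CBF3 were not named in the annotation table used (0 probe sets), so the genotypes were not checked here. Markers of root and of green tissue were present on every array, and the seed storage markers had 0 named probe sets. The 6 tested root markers summed to 2532 to 2950 in the cold and 2728 to 3287 at ambient temperature, and the 8 photosynthesis genes to 13470 to 14812 in the cold and 16740 to 17606 at ambient temperature. The part of these marker levels in the results was not tested. In whole seedlings, fewer cells of a type and less RNA per cell cannot be told apart.

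The response to cold was first taken over the 3 mutant lines alone. Cold raised COR genes, the stress repressor STZ and 11 of 28 UDP-glycosyltransferase genes, and lowered ATG8 autophagy genes, genes of chlorophyll synthesis and light capture and the expansin EXPA8. Of 14232 tested probe sets, 3394 passed limma's paired test at an adjusted p under 0.05, a background of 23.8%, with 1610 higher (11.3%) and 1784 lower in the cold (12.5%). The change had the same sign in 3 of 3 lines for 3387 of them. A call rests on these same 3 changes lying close together, so that number adds no separate support. At over 2-fold, 421 were higher (2.96%) and 280 lower (1.97%). The count fell to 947 when the line was left out of the fit, and it was 2298 without fab1. The gene lists were chosen with earlier results of these data known, and the gene families after the annotation or the values were seen. Their counts beside the background are therefore a description and no test of a list or family. Values below are MAS5 signals, always in the order fab1, fad2 and fad3/7/8, and changes are cold minus ambient on the scale of log2(signal + 1.6), with limma's SE and adjusted p.

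The largest rise of a named gene was that of COR27, which links cold to the circadian clock. Its signals were 226.6, 263.7 and 426.7 in the cold, against 2.9, 6.6 and 31.1 at ambient temperature. The cold signals all lay above the ambient ones, and fad3/7/8 was the highest of the 3 mutant lines at both temperatures. In Col-0, Col-aeq and 35S-FAD3 the COR27 signals were 155.5, 430.1 and 288.3 in the cold, and 11.7, 19.9 and 1.4 at ambient temperature. Col-aeq was thus above fad3/7/8 in the cold. The COR27 change over the mutant lines was 4.80 (SE 0.301, adjusted p = 1.37e-05 by limma). AT4G33980, on the list of cold effectors, had 242.6, 320.1 and 515.5 in the cold, against 10.8, 7.2 and 51.3 at ambient temperature, a change of 4.26 (SE 0.286). Here too fad3/7/8 had the highest signal of the 3 mutant lines at each temperature, and in both genes it had the smallest change of the 3. In Col-0, Col-aeq and 35S-FAD3 the AT4G33980 signals were 146.8, 461.5 and 278.3 in the cold, and 4.4, 33.8 and 7.4 at ambient temperature. Ambient signals under 20, the filter level for the mean, make the sizes of such rises uncertain.

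The other tested cold effectors rose as well, 7 of 7 in all, against the 11.3% of all probe sets that were higher. COR15B, one of a pair of small proteins that protect chloroplasts in freezing, had 1270.1, 1174.9 and 1407.5 in the cold, against 75.2, 316.3 and 223 at ambient temperature. The cold signals were close together and the ambient ones were not, and the mean change was 2.86 (SE 0.312). COR15A, the other of the pair, had 1228.2, 1290.1 and 1834.8 in the cold, against 166, 485.5 and 318.9 at ambient temperature (change 2.27, SE 0.225). In both genes fad2 had the highest ambient signal of the 3 mutant lines. The dehydrin LTI30 was more even, with 2261, 2060.5 and 2489.5 in the cold, against 425.6, 517.8 and 514.3 at ambient temperature (2.22, SE 0.0935). COR47, another dehydrin, had the lowest SE of the list, with 2209.6, 2155.1 and 2463.5 in the cold, against 899.2, 888.4 and 991.4 at ambient temperature (1.29, SE 0.0685). LEA4-5, a late embryogenesis abundant protein, had 71.5, 156.1 and 81.1 in the cold, against 34.8, 37.5 and 8.8 at ambient temperature (2.00, SE 0.303). The list had a median change of 2.27, against −0.05 over all tested probe sets, and 6 of 7 passed without the line in the fit.

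**Figure D1:**
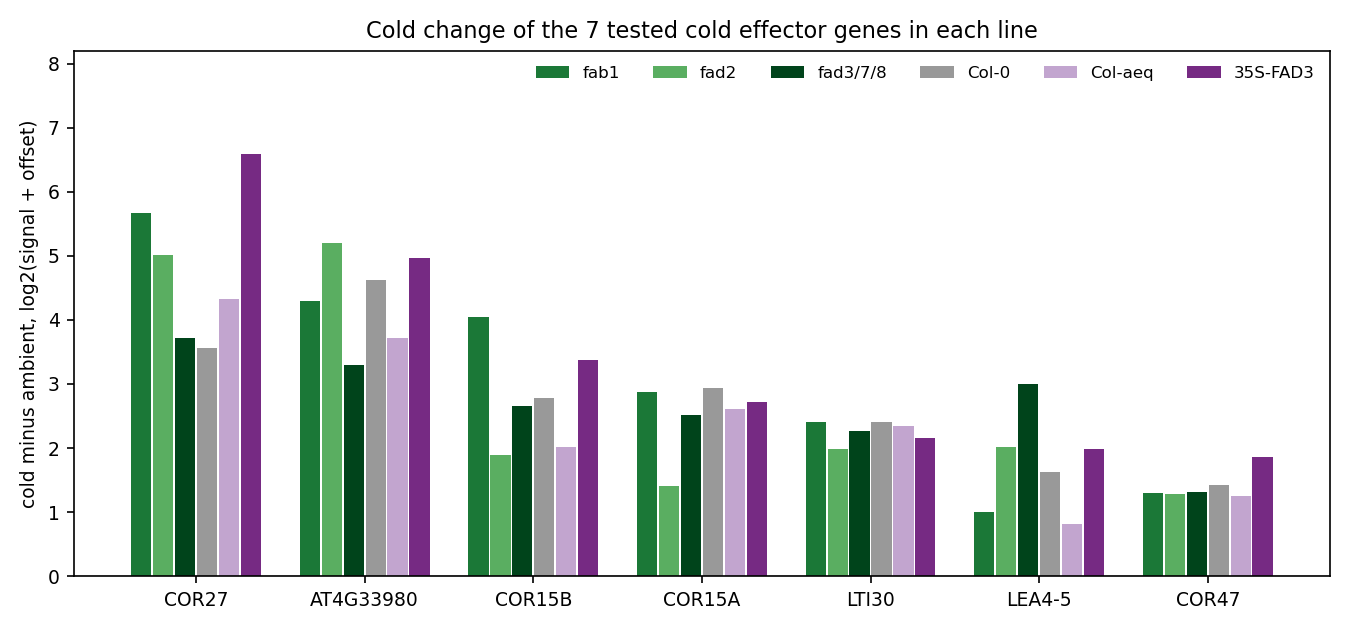
Cold minus ambient change, on the scale of log2(signal + 1.6), of the 7 tested cold effector genes, with 1 bar per line (1 cold and 1 ambient array each); green bars are the 3 mutant lines, grey and purple bars Col-0, Col-aeq and 35S-FAD3. All bars lie above 0; for COR15A the fad2 bar stands at 1.41, the lowest of the 6 lines, and for COR47 the mutant bars lie between 1.28 and 1.31.

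STZ, also known as ZAT10, a zinc finger repressor of stress genes, alone was tested from the list of early cold factors. Its signals were 810.5, 637.2 and 880.9 in the cold, against 67.4, 42.5 and 66.2 at ambient temperature. The groups lay far apart in every line, and the change was 3.71 (SE 0.107, adjusted p = 3.31e-07 by limma). The clock gene GI had 431.5, 543.7 and 647.3 in the cold, against 242.6, 244.6 and 398.2 at ambient temperature. Its change was 0.89 (SE 0.109), with the highest signals in fad3/7/8, and it did not pass without the line in the fit (adjusted p = 0.0622). TINY2, an AP2 factor of the DREB type chosen after its values were seen, had 50.5, 58.8 and 46.7 in the cold, against 17.6, 21.9 and 18.4 at ambient temperature (1.36, SE 0.164).

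Among membrane lipid genes, 1 of 5 tested passed, against 23.8% of all probe sets, so the number was near the background. CCT2, which makes CDP-choline for phosphatidylcholine synthesis, had 172, 188.4 and 169.4 in the cold, against 50.7, 48.4 and 43.8 at ambient temperature. The 3 lines were close at each temperature, and the change was 1.86 (SE 0.117, adjusted p = 1.37e-05 by limma). Its relative CCT1 had 91.7, 77.2 and 116.6 in the cold, against 146.7, 71.2 and 115.9 at ambient temperature (−0.18, adjusted p = 0.454 by limma), so its groups overlapped. FATB and FaTA, the thioesterases that release fatty acids from plastid synthesis, stood at −0.11 (adjusted p = 0.479 by limma) and −0.28 (adjusted p = 0.205). TIL, the temperature-induced lipocalin, was 1436.5, 1270.9 and 1403.4 in the cold, against 1094.5, 1040.1 and 1205.6 at ambient temperature. That small rise (0.30, SE 0.0746, adjusted p = 0.0195 by limma) was not past the threshold without fab1 (adjusted p = 0.0907) or without fad3/7/8 (0.0556). The plastid lipocalin CHL stood at −0.14 (adjusted p = 0.459 by limma).

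Genes of the UDP-glycosyltransferase family, grouped by name and not by substrate, rose in part. Of 28 tested UDP-glycosyltransferases, 11 were higher and 1 lower in the cold, against 11.3% higher and 12.5% lower over all probe sets. Their median change was 0.16. UGT84A1, which glucosylates hydroxycinnamates, had 79.3, 60 and 47.5 in the cold, against 1.9, 1.5 and 1.5 at ambient temperature (4.28, SE 0.292). All 3 ambient signals were at about the offset, so the size of this rise is uncertain. UGT78D2, a flavonoid glucosyltransferase, had 906.3, 666 and 649.6 in the cold, against 160.2, 165.3 and 112.1 at ambient temperature (2.34, SE 0.122). UGT73C1 (1.67), UGT72B3 (1.53), UGT71B1 (0.99) and UGT84A3 (0.92) were higher as well, and UGT88A1 was lower (−0.43).

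On the phenylpropanoid and flavonoid list, 5 of 7 tested genes rose and 1 fell, against 11.3% higher and 12.5% lower over all probe sets. The fad2 line had the highest DFR, AT5MAT and UF3GT signals of the 3 lines. DFR, which makes anthocyanin precursors, had 66, 183.1 and 42.3 in the cold, against 18.9, 58.4 and 27.3 at ambient temperature (1.32, SE 0.215). The fad3/7/8 cold signal lay below the fad2 ambient one, while every line was higher in the cold than at ambient temperature. AT5MAT, an anthocyanin malonyltransferase, had 21.2, 69.5 and 10.6 in the cold, against 9, 22.4 and 1.1 at ambient temperature (1.62, SE 0.304), again highest in fad2. UGT78D1, a flavonol rhamnosyltransferase, and UF3GT each changed by 0.72 (adjusted p = 0.0244 and 0.0491 by limma). In fad3/7/8 the UF3GT signals were 30.6 in the cold and 30.5 at ambient temperature. AT4G14090, on the same list, stood at 0.97 (adjusted p = 0.0588 by limma). AT1G23390 was the member that fell, with 246.1, 136.9 and 256.2 in the cold, against 1700.1, 1201.6 and 1659.6 at ambient temperature (−2.86, SE 0.104). The number that rose was 3 of 7 without fab1, 3 of the 5 still tested without fad2, and 6 of 7 without fad3/7/8. CHIL, a chalcone isomerase-like protein chosen after its values were seen, had 368.5, 277.1 and 135.7 in the cold, against 86.8, 111.8 and 94.6 at ambient temperature (1.29, SE 0.237).

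**Figure D2:**
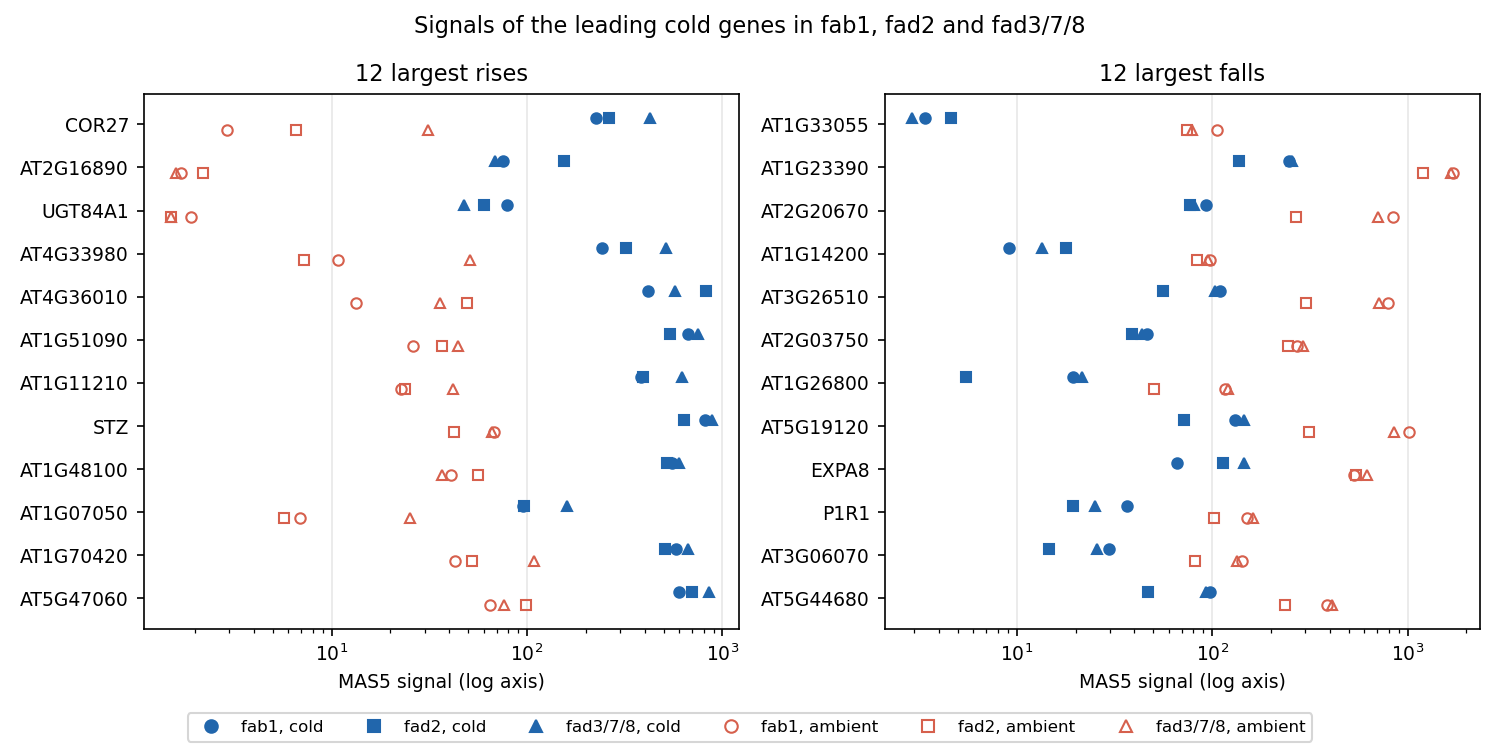
MAS5 signals (log axes) of the 12 named genes with the largest rises, left, and the 12 with the largest falls, right, in fab1 (circles), fad2 (squares) and fad3/7/8 (triangles), filled in the cold and open at ambient temperature. Cold and ambient signals do not overlap for any of these genes, which were chosen for that size of change; AT1G33055 lies at 2.9 to 4.6 in the cold and 74.2 to 105.5 at ambient temperature.

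Several of the other leading genes are known here by locus alone. AT4G36010 had 416, 828.2 and 572.8 in the cold, against 13.4, 49.2 and 35.7 at ambient temperature (4.26, SE 0.167). AT2G16890 had 75.4, 155.4 and 68.5 in the cold, against 1.7, 2.2 and 1.6 at ambient temperature (4.79, SE 0.276). AT4G36010 was highest in fad2 at both temperatures, and AT2G16890 was highest in fad2 in the cold. The ambient signals of AT2G16890 were at about the offset, so the size of its rise is uncertain. AT1G51090 (4.15), AT1G11210 (3.93), AT1G48100 (3.62), AT1G07050 (3.29), AT1G70420 (3.18) and AT5G47060 (3.15) completed the 12 largest rises. A probe set with no listed gene rose further than any named one, with 1721.7, 1595.1 and 1927.5 in the cold, against 18.9, 40.9 and 40.4 at ambient temperature (5.72, SE 0.192), and it was singled out after its values were seen.

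AT1G33055 fell furthest of the named genes, with 3.4, 4.6 and 2.9 in the cold, against 105.5, 74.2 and 78.8 at ambient temperature (−4.06, SE 0.242, adjusted p = 1.03e-05 by limma). The cold signals are near the offset, so the size of this fall is uncertain. EXPA8, an expansin that loosens cell walls, had 65.8, 113.9 and 145.9 in the cold, against 530.8, 542 and 622.3 at ambient temperature (−2.43, SE 0.164). The ambient signals of EXPA8 lay close together, and the cold ones differed, lowest in fab1. Falls in AT2G20670 (−2.68), AT1G14200 (−2.67), AT3G26510 (−2.67), AT2G03750 (−2.60), AT1G26800 (−2.58), AT5G19120 (−2.53), P1R1 (−2.30), AT3G06070 (−2.29) and AT5G44680 (−2.13) made up the rest of the 12, beside AT1G23390. For AT2G20670 the ambient signal of fad2 was 269.9, against 837.1 in fab1 and 705 in fad3/7/8, while the cold signals were 93.2, 76.6 and 80.8.

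Among 17 tested genes for expansins and xyloglucan enzymes, 2 rose and 4 fell, beside 11.3% higher and 12.5% lower over all probe sets, so the number that rose was at the background. EXLA2, an expansin-like gene, had 45.9, 67.8 and 39.9 in the cold, against 17.7, 15.9 and 10.4 at ambient temperature (1.69, SE 0.202), the opposite of EXPA8. XTH32 rose (0.68), and XTH16 (−0.97), EXGT-A3 (−0.53) and EXPA4 (−0.62) fell. EXPA4 did not pass without fad3/7/8 (adjusted p = 0.123 by limma). Chosen after their values were seen, EXO, a gene of brassinosteroid-linked growth, had 47.9, 86.6 and 65 in the cold, against 243.3, 135.6 and 161.2 at ambient temperature (−1.41, SE 0.255). GID1B, a gibberellin receptor, had 131.7, 76.2 and 95.8 in the cold, against 41.2, 33.8 and 37.8 at ambient temperature (1.36, SE 0.142).

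Of 9 tested ATG8 genes, whose proteins coat forming autophagosomes, 7 fell and none rose, against 12.5% of all probe sets that were lower. ATG8E had 121.2, 76.1 and 201.3 in the cold, against 400.3, 173.5 and 352.6 at ambient temperature (−1.23, SE 0.16). Its highest cold signal, in fad3/7/8, lay above the lowest ambient one, in fad2, so the fall shows within lines rather than between groups of arrays. ATG8F had 566.9, 526.7 and 813.3 in the cold, against 1308, 1017 and 1235.8 at ambient temperature (−0.92, SE 0.112). ATG8G (−0.03) and ATG8D (−0.22) did not pass. The number that fell was 4 without fab1 and 1 without the line in the fit.

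In the list of photosynthesis and chlorophyll synthesis, 5 of 8 tested nuclear genes fell and none rose, against 12.5% of all probe sets that were lower. The median was −0.41. The 5 were HEME1 and HEME2, uroporphyrinogen decarboxylases, PORB, which reduces protochlorophyllide in the light, and the antenna genes LHCB4.1 and LHCB4.2. HEME1 had 266.3, 302.6 and 316.2 in the cold, against 455.2, 577.9 and 490 at ambient temperature (−0.78, SE 0.0981). PORB had 341.3, 404 and 542.6 in the cold, against 411.1, 1022.1 and 852.9 at ambient temperature (−0.75, SE 0.17), a smaller change in fab1 than in the other 2 lines. Rubisco activase, RCA (−0.13), and the Calvin cycle genes PRK (−0.09) and SBPASE (−0.02) did not pass. The number that fell was 3 without the intensity trend and 1 without the line in the fit.

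Plastid-encoded probe sets were taken as a further group. Of 68 tested, 2 were higher and 11 lower, with a median of −0.16. Over all probe sets 11.3% were higher and 12.5% lower, so the number lower was near the background. The ribosomal protein gene rps16 had 170.3, 401 and 225.1 in the cold, against 93.2, 102.7 and 107.8 at ambient temperature (1.29, SE 0.190), a larger rise in fad2 than in the other 2 lines. The gene rbcL, for the large subunit of Rubisco, had 1237.8, 821.7 and 1138.2 in the cold, against 1017.5, 669.5 and 770.4 at ambient temperature (0.38, SE 0.0867). The falls were small, from −0.44 in petL to −0.21 in psaJ. The number lower was 6 without fab1, 5 without fad2, 2 with arrays centred on their medians and 0 without the intensity trend. The line medians were −0.15, −0.24 and −0.11 in the mutant lines and 0.09 in Col-0, 0.70 in Col-aeq and −0.27 in 35S-FAD3. For psbD, of the photosystem II core, the Col-aeq signals were 1403.1 in the cold and 98.8 at ambient temperature, on the array that stood apart in its controls.

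**Figure D3:**
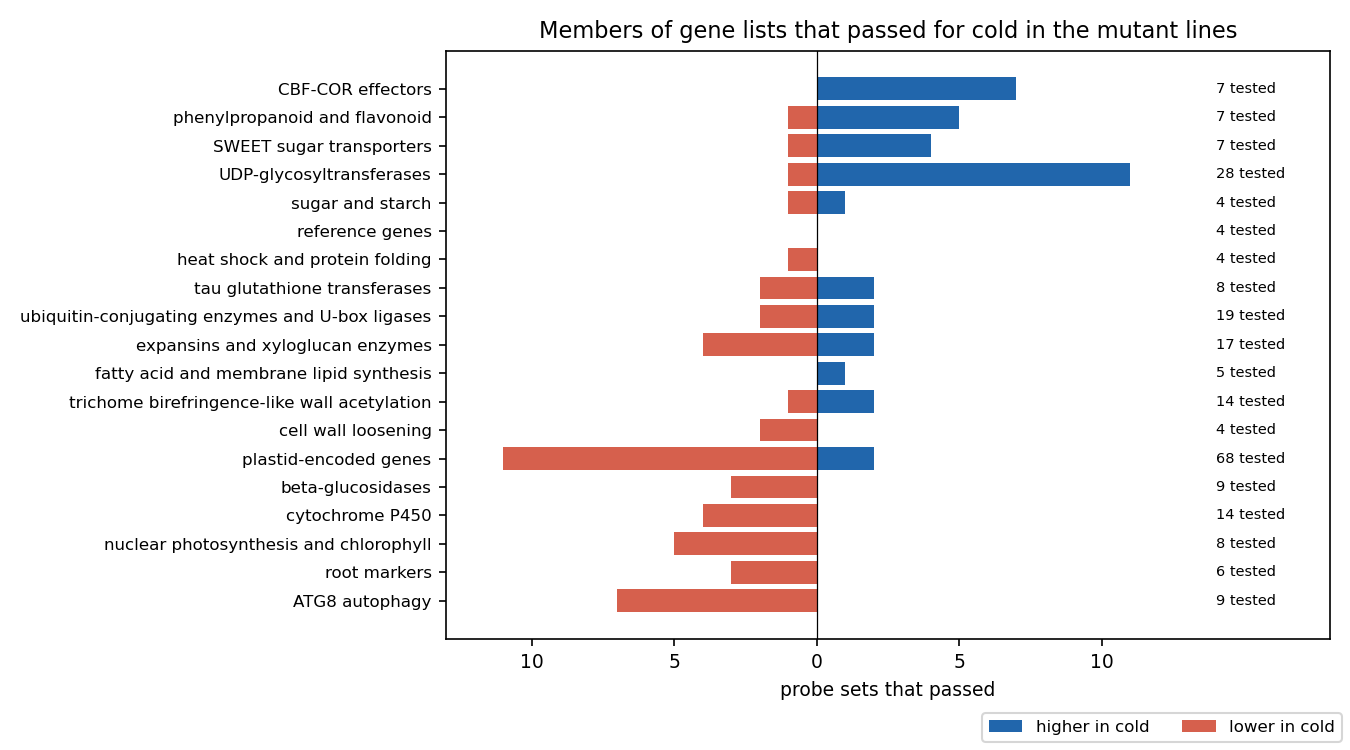
Number of probe sets of each gene list or family with at least 4 tested members that passed limma's cold test in fab1, fad2 and fad3/7/8, higher in the cold to the right (blue) and lower to the left (red), in the order of the list's median change; the number tested stands at the right. The cold effectors head the order with 7 of 7 higher, and the ATG8 genes close it with 7 of 9 lower.

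Of 7 tested SWEET sugar transporters 4 were higher, SWEET13 (0.85), SWEET2 (0.82), SWEET1 (0.80) and SWEET4 (0.73), and SWEET16, of the vacuole membrane, was lower (−0.44). The background over all probe sets was 11.3% higher and 12.5% lower. SAG29, also called SWEET15 and chosen after its values were seen, had 173, 508.1 and 203.9 in the cold, against 72.9, 187.1 and 55.5 at ambient temperature (1.50, SE 0.135). It was highest in fad2 at both temperatures. SWEET16 did not pass without fab1 (adjusted p = 0.0944 by limma) or without fad3/7/8 (0.252).

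Both tested nucleolar genes rose, against 11.3% of all probe sets that were higher, and the rise was largest in fab1. AT5G14520, known as PESCADILLO, a ribosome assembly factor, had 470.4, 404.7 and 274.2 in the cold, against 196.5, 267.6 and 186.6 at ambient temperature (0.80, SE 0.143). AT3G05060 had 193.5, 169.9 and 115.9 in the cold, against 75, 112 and 87.6 at ambient temperature (0.78, SE 0.175). The line medians of this pair were 1.30, 0.59 and 0.47, and 0.45 to 0.76 in the other lines. Further genes of this kind, chosen after their values were seen, were NRPA1, the largest subunit of RNA polymerase I, with 118.6, 87.8 and 49.7 in the cold, against 32, 39.3 and 39.2 at ambient temperature (1.10, SE 0.243), NRPA2 (0.84), YAO (0.78) and IMP4 (0.75).

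Further single genes were chosen after their values were seen, and the ubiquitin family was counted whole. Of 19 tested ubiquitin-conjugating enzymes and U-box ligases, 2 were higher and 2 lower. Both numbers were near the background of 11.3% higher and 12.5% lower over all probe sets. The ligase gene PUB19 had 226.6, 237.1 and 398 in the cold, against 32, 42.9 and 22.3 at ambient temperature (3.08, SE 0.262). PUB26, of the same family, had 18.9, 3.5 and 8.3 in the cold, against 53.5, 24.6 and 45 at ambient temperature (−2.01, SE 0.26). HYH, the bZIP relative of HY5 in light signalling, had 447.6, 256.9 and 421.4 in the cold, against 151.1, 77.6 and 69.5 at ambient temperature (1.95, SE 0.181). SMZ, an AP2 repressor of flowering, changed by 1.40, SERPIN1, a protease inhibitor, by 1.47, XERICO, a RING protein, by −0.81, DPE1, the plastid disproportionating enzyme of starch breakdown, by −1.41 and AKINBETA1, a subunit of the SnRK1 energy sensor, by −1.24. All of these passed and, like nearly all calls, had the same sign in 3 of 3 lines.

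The next counts stand beside 11.3% higher and 12.5% lower over all probe sets. Of the cytochrome P450 genes 4 of 14 were lower and 0 higher, but 0 were lower without fab1. Of the beta-glucosidases 3 of 9 were lower, and 1 without fab1 or without fad3/7/8. Tau glutathione transferases had 2 of 8 higher and 2 lower, the trichome birefringence-like family 2 of 14 higher and 1 lower, and WRKY factors 1 of 3 higher, WRKY6 (1.03). None of 3 jacalin lectins or of 1 Aux/IAA gene passed. On the heat shock list 1 of 4 fell, AT5G48570, the immunophilin ROF2, with 46, 28.8 and 32.8 in the cold, against 71.9, 47.9 and 83.5 at ambient temperature (−0.88, SE 0.168). The calmodulin-like gene CML38 stood at 0.72 (adjusted p = 0.0974 by limma) and passed without fad3/7/8 (1.15, adjusted p = 0.0145), where its cold signal of 36.9 was below the ambient 41.2. AT5G05600, on the jasmonate list, stood at 0.14 (adjusted p = 0.658), and the lists for abscisic acid, salicylate and seed storage had 0 tested members.

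Among root markers 3 of 6 were lower in the cold, against 12.5% of all probe sets. The root genes AT4G26010 (−1.06), AT4G30170 (−0.57) and AT5G17820 (−0.46) passed, and the abundant root beta-glucosidase PYK10 did not (−0.09, adjusted p = 0.371 by limma). AT4G26010 had 39.3, 199.6 and 28.9 in the cold, against 82.3, 291 and 91.1 at ambient temperature. The fad2 line was above the other 2 at both temperatures by more than the cold change. Without fab1 or without fad3/7/8 1 of the 6 passed. Of 4 reference genes 0 passed, with changes of 0.08 for PEX4, 0.07 for GAPC2, 0.33 for AT2G28390 and −0.25 for AT4G34270, and AT2G28390 passed without fab1 (0.54, adjusted p = 0.0341).

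The second comparison asked whether the cold change itself differed between the 3 mutant lines and Col-0, Col-aeq and 35S-FAD3. No probe set showed a difference that passed. Of 14193 tested on the 6 within-line differences, 0 passed limma's test (0% called), the lowest adjusted p was 0.957, and 516 had an unadjusted p under 0.05 (3.64%). Without Col-aeq 0 passed as well and 579 had such a p, and leaving out other lines gave 304 (without fad3/7/8) to 1055 (without 35S-FAD3). The 95% interval of a difference reached 0.49 to either side for the median probe set on the log2 scale, before any adjustment for the number of tests. A difference has to be larger still to pass after adjustment, so differences above 0.49 can go undetected. Among the cold effectors, the difference was −0.22 for COR47 (interval −0.58 to 0.14) and −0.09 for LTI30 (−0.42 to 0.25), while for COR27 (−0.03) the interval ran from −1.60 to 1.54.

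**Figure D4:**
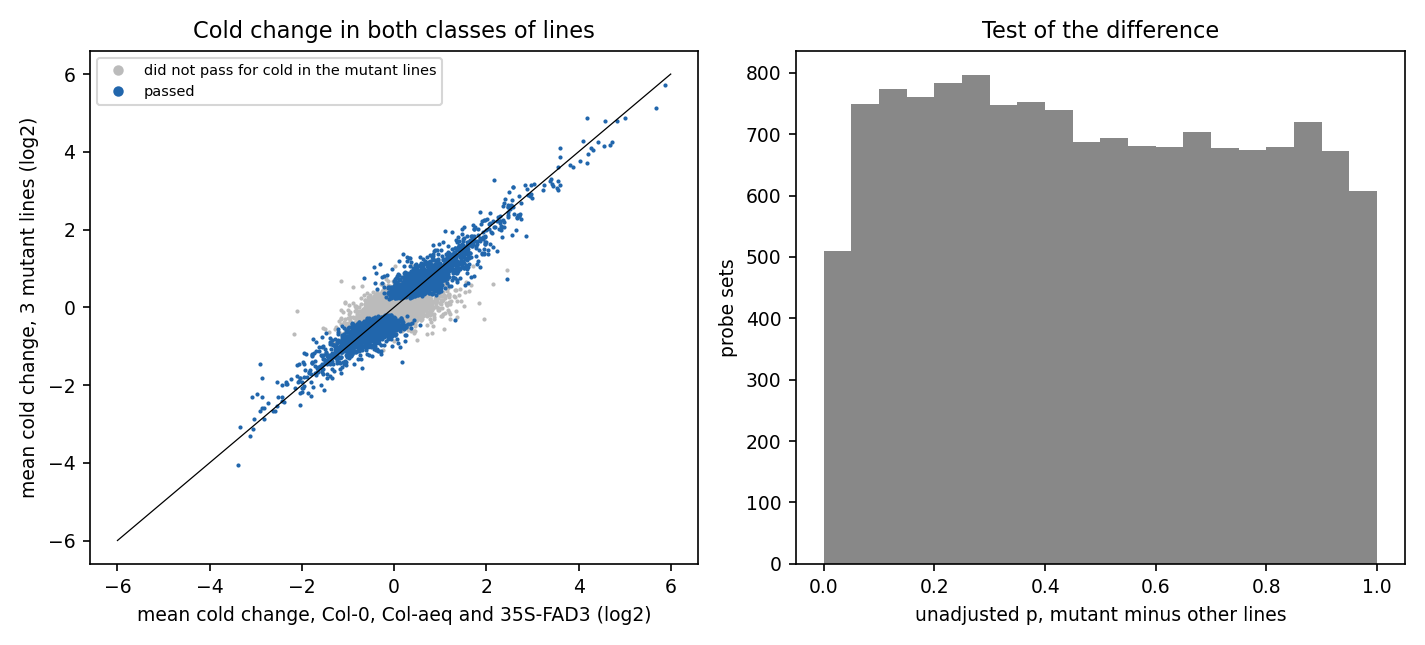
Left, mean cold minus ambient change (log2) of each probe set in fab1, fad2 and fad3/7/8 against that in Col-0, Col-aeq and 35S-FAD3, blue where the probe set passed the cold test in the mutant lines, with the line of equal change; right, number of probe sets by unadjusted p of the test of the difference between the classes, in bins of 0.05. The points follow the line, and the lowest p bin holds fewer probe sets than its neighbours.

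Most cold calls in the mutant lines had the same sign in the other lines. The same paired fit in Col-0, Col-aeq and 35S-FAD3, which shares no array with the mutant fit, called 1637 of 14140 probe sets (11.6%), and 2846 of 14159 without Col-aeq (20.1%). Among the 13931 tested in both, 1415 passed in both, 42.0% of the mutant calls and 87.2% of the calls in the other lines, and all 1415 had the same direction. Without Col-aeq 2074 passed in both, 61.7% of the mutant calls and 73.3% of the others, and 2072 of them had the same direction. Of the mutant calls 96.8% had the same sign in the other lines, against 76.2% of all tested probe sets. Without Col-aeq these shares were 97.8% and 78.5%. Across 14232 probe sets the cold changes of the mutant lines correlated at r of 0.727 to 0.730 with one another, 0.680 to 0.783 with Col-0 and 35S-FAD3 and 0.557 to 0.590 with Col-aeq, which describes arrays of one platform, since probe sets are not independent.

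For the leading cold genes STZ and AT5G44680 the difference between the classes did not pass. The change of STZ was 3.56, 3.86 and 3.70 in the mutant lines, against 4.21 in Col-0, 3.85 in Col-aeq and 4.51 in 35S-FAD3. All but Col-aeq were above the mutant lines. The difference was −0.49 (interval −0.93 to −0.04, unadjusted p = 0.0367, adjusted p = 0.957 by limma), and −0.66 without Col-aeq (adjusted p = 0.999). AT5G44680 changed by −1.97, −2.29 and −2.13 in the mutant lines, against −1.56 in Col-0, −1.32 in Col-aeq and −1.67 in 35S-FAD3 (difference −0.61, adjusted p = 0.957 by limma). For AT1G33055 the difference was −0.68 (interval −2.27 to 0.91) and −1.70 without Col-aeq (adjusted p = 0.999), with cold signals of 15 in Col-0, 2.6 in Col-aeq and 13.4 in 35S-FAD3.

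The 6 named genes with the lowest p for the class difference are given as a description. AT5G37130 changed by −0.42, −0.47 and −0.48 in the mutant lines, against 1.00 in Col-0, 0.41 in Col-aeq and 0.75 in 35S-FAD3 (difference −1.17, SE 0.296, adjusted p = 0.957 by limma). Its signals were 14 to 35.4 on the mutant arrays, close to the filter level. OTP81, a factor of organelle RNA editing, changed by 0.41, 0.97 and 1.25 in the mutant lines, against 0.04, −0.44 and −0.76 in Col-0, Col-aeq and 35S-FAD3 (1.27, SE 0.33). AT1G67870 (−0.73), AT1G36390 (0.77), AT5G19090 (−0.81) and AT2G03200 (−0.73) were the others. These 6 were picked by this test, and none of them passed it.

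Set against the 3 other lines one at a time, no mutant line gave a probe set that passed. The counts at an unadjusted p under 0.05 were 259 for fab1 (1.82%), 283 for fad2 (1.99%) and 279 for fad3/7/8 (1.97%), with 0 called (0%) in each by limma. Without Col-aeq these counts were 693, 858 and 906, and without Col-0 they were 169, 169 and 155. A single line has 1 difference, so its spread was taken from the other 3 lines.

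In fab1 the lowest p values belonged to AT2G18900, the defensin gene PDF1.2b and AT3G06530. AT2G18900 changed by 2.11 in fab1, against 0.34 in Col-0, 0.56 in Col-aeq and 0.56 in 35S-FAD3, from fab1 signals of 79.4 in the cold and 17.2 at ambient temperature (difference 1.62, SE 0.314, adjusted p = 0.999 by limma). AT3G06530 changed by 1.79 in fab1, against 0.39 to 0.49 in the other 3 lines. In both genes the fab1 ambient signal was the lowest of the 6 lines.

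In fad2 the leading gene was COR15A, with a change of 1.41, against 2.94 in Col-0, 2.62 in Col-aeq and 2.72 in 35S-FAD3 (difference −1.35, interval −1.95 to −0.75, unadjusted p = 0.00097, adjusted p = 0.998 by limma). Its fad2 signals were 1290.1 in the cold and 485.5 at ambient temperature. The ambient signals of the other 3 lines were 193.4, 277.5 and 215.2, all lower, and their cold signals were 1498.5, 1710.1 and 1423.2, all higher. COR15B, by contrast, changed by 1.89 in fad2 and by 2.02 in Col-aeq. AT5G61370 changed by 2.55 in fad2, with signals of 34.2 in the cold and 4.5 at ambient temperature, and AT1G32920 by 0.27, against −1.34 to −0.82 in the other 3 lines.

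In fad3/7/8 the lowest p values were those of AT3G12870, PDF1.2b and AT2G38240. PDF1.2b, a plant defensin of the jasmonate and ethylene response, had 53.6, 24.5 and 63.8 in the cold, against 23, 38.3 and 21.4 at ambient temperature. It was higher in the cold in fab1 and fad3/7/8 and lower in fad2. In the other lines it had 121.9 in the cold and 207.7 at ambient temperature in Col-0, 42.3 and 159.6 in Col-aeq and 48.8 and 87 in 35S-FAD3, lower in the cold in all 3. The difference for fad3/7/8 was 2.66 (SE 0.479, adjusted p = 1.00 by limma), and without Col-aeq it was 2.30 (adjusted p = 0.0171). The probe set is of a type that can pick up related transcripts, so the value may belong to several defensin genes. Without Col-aeq 11 probe sets passed for fad3/7/8, 1 for fab1 and 0 for fad2, with the spread then taken from Col-0 and 35S-FAD3 alone.

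Besides PDF1.2b, 3 of those 11 had a named gene, and they are given as the fit without Col-aeq picked them, after their values were seen. AT5G32510 changed by −3.20 in fad3/7/8, with signals of 7.8 in the cold and 84.9 at ambient temperature, against 0.07 in Col-0, −1.09 in Col-aeq and 0.28 in 35S-FAD3. AT5G62360 changed by 1.97 in fad3/7/8, with 784.4 in the cold and 198.5 at ambient temperature, against 4.12 in Col-0, 2.89 in Col-aeq and 3.63 in 35S-FAD3. AT1G20030 changed by 0.82, with 361.6 in the cold and 204.1 at ambient temperature, against 2.57 in Col-0, 1.82 in Col-aeq and 2.33 in 35S-FAD3. In AT5G62360 and AT1G20030 the fad3/7/8 ambient signal was the highest of the 6 lines.

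The genes with the widest range of cold change among the mutant lines are given as a description, with no test. AT3G02480 changed by −0.98, 0.04 and 1.40, with signals of 17.3, 140.2 and 74.3 in the cold, against 35.6, 136.3 and 27.1 at ambient temperature. AT4G22610 changed by 0.69, 1.26 and −0.998, so that fad3/7/8 went the other way. COR15B had a range from 1.89 in fad2 to 4.05 in fab1, and its cold signals differed less than its ambient ones. AT4G39675 changed by 0.06, −2.04 and −0.69, AT1G73120 by −2.21, −0.15 and −0.94, and LEA4-5 by 1.01, 2.01 and 2.99. COR27 and AT4G33980 closed the list, both with the smallest change in fad3/7/8. Over all probe sets called in the cold test, the median change was 0.78 up and −0.65 down in fab1, 0.65 and −0.56 in fad2 and 0.64 and −0.54 in fad3/7/8, against 0.59 and −0.53 in Col-0, 0.72 and −0.52 in Col-aeq and 0.62 and −0.52 in 35S-FAD3. These probe sets were chosen on the mutant values, so the medians are no test of the lines against each other.

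**Figure D5:**
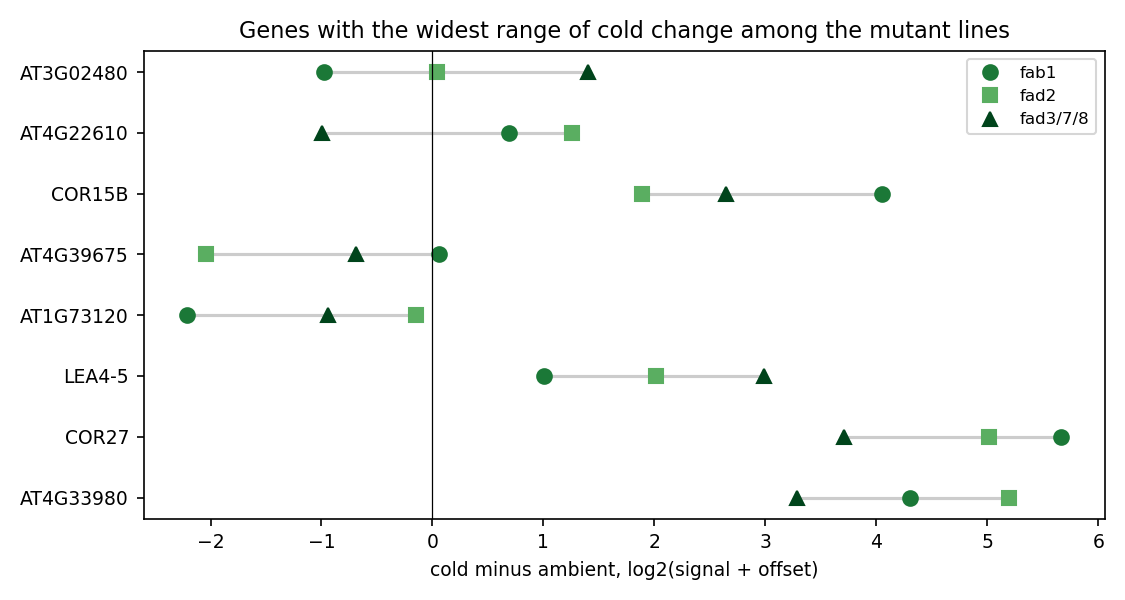
Cold minus ambient change, on the scale of log2(signal + 1.6), of the 8 named genes with the widest range among fab1 (circles), fad2 (squares) and fad3/7/8 (triangles), 1 difference per line. In AT3G02480, AT4G22610 and AT4G39675 fad3/7/8 lies across 0 from another mutant line, in AT4G39675 from fab1 at 0.06. In COR15B, LEA4-5, COR27 and AT4G33980 all 3 lines lie above 0.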

How the data were processed

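Each deposited column holds linear intensity values, a MAS5 signal for each of 22810 probe sets. The authors made them with MAS5 and GCOS, per the submitters' processing notes, in versions not given in the sources used here. With 2% trimmed at both ends the mean was 100.0 on all arrays, so no further scaling was applied. Arrays have no read depth, and their number limits the precision.

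Of the probe sets, 13513 had 1 gene in GEO's platform table, 503 had several and 8794 were not listed there. 13436 matched RefSeq (TAIR10.1), used for names only. The 64 control probe sets were left out.

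Signals were taken as log2(signal + 1.6), the 10th percentile of all values, which understates the change of low genes. Probe sets with a mean of 20 or more over the arrays of a fit were tested with limma 3.58.1 in R 4.3.3 (eBayes with an intensity trend, threshold 0.05 after Benjamini-Hochberg). The cold fit had line as a block (2 residual degrees of freedom). The class test used the 6 within-line differences (4), and single lines the spread of the other 3 lines (2). Fits were tested on simulated data. Python 3.11.15 and matplotlib 3.10.9 made the figures.

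Named genes were the 12 largest rises and falls (signal 50 or more at the higher temperature), up to 4 members of each list with the lowest p, 6 genes for the class test, 3 for each line, and the 8 widest ranges. The comparison, the 19 lists (313 genes, 66 tested) and the rules were chosen with earlier results of these data known; 12 families and further examples were chosen after the annotation or the values were seen. Alternatives covered the offset, filter, normalization, trend, block, array weights and each line left out.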

Additional observations from a re-analysis of the deposited data

Results flagged for a closer look

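For 4 named genes, 2 mutant lines changed in opposite directions in the cold, each by over 0.5 on the log2 scale. Only the named genes were scanned. These 4 had been named for a low p in a single line or a wide range of change. Their number follows from that choice and says nothing about all probe sets. Each line has 1 cold and 1 ambient array, and these differences between lines were not tested. AT3G12870 changed by 1.06 in fab1 and −3.28 in fad3/7/8, a difference of 4.34, with signals of 13.8 in the cold and 5.8 at ambient temperature in fab1, and of 2.4 in the cold and 37.2 at ambient temperature in fad3/7/8. AT3G02480 changed by 1.40 in fad3/7/8 and −0.98 in fab1, a difference of 2.38, and was highest in fad2, at 140.2 in the cold and 136.3 at ambient temperature. AT4G22610 changed by 1.26 in fad2 and −0.998 in fad3/7/8, a difference of 2.26, with signals of 111.8 in the cold and 45.7 at ambient temperature in fad2, and of 29.7 in the cold and 60.9 at ambient temperature in fad3/7/8. PDF1.2b changed by 1.51 in fad3/7/8 and −0.61 in fad2, a difference of 2.12. All 4 had at least 1 signal under 50 among these arrays.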

How the results depend on the processing

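The cold count of 3394 stayed within 1.5 times under an offset of 16, no filter, a filter of 50, quantile normalization, median centring, no intensity trend, all 12 arrays in the fit and array weights (added after the data were seen), at 2357 to 3499. Without 1 line it was 2298 to 2666, of which 2123 to 2402 were among the 3394. Without the line in the fit it was 947, all among the 3394; that fit leaves the differences between lines in the error. In it 6 of 7 cold effectors, 5 of 28 UDP-glycosyltransferases, 1 of 7 flavonoid genes and 0 of 2 nucleolar genes were higher, and 1 of 9 ATG8 genes, 1 of 8 photosynthesis genes and 0 of 6 root markers were lower. The share of calls that were higher was 47.4%, 57.9% without the line in the fit and 46.8% to 54.6% otherwise. The class difference had 0 calls under all of its alternatives, and fad2 likewise; fab1 ranged over 0 to 1 and fad3/7/8 over 0 to 11, both highest without Col-aeq. Cold calls in the other lines were 1637, and 2846 without Col-aeq. Over named genes in the cold test, 807 values kept their side of the threshold, 42 lost it and 5 gained it. Among values that passed in the main fit or the alternative, 0 changed sign. Changes of sign where neither fit passed were not counted. No paired analysis by replicate number was possible because all arrays are labelled replicate 1; the pairing by line is part of the cold fit. Signals under 20 limit the sizes of changes, and 557 calls had a mean signal under 50.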
